A study of Mus musculus with 8 samples.

Results

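Interferon-stimulated genes are the genes whose transcription rises when a cell senses interferon. The 41 members described here were chosen by symbol: RNA sensors, the transcription factors that carry the signal, the ISG15 system, antiviral effectors, interferon-inducible GTPases, PYHIN and nuclear body proteins, and the peptide transporter Tap1. Of the 16593 mouse genes with a probe on the bead array, 39 were members. Ifi44 and Ifi203 had no probe among those annotated here. The probe of highest mean stood for a gene with several. A detection filter (detection p under 0.01 on at least 2 of the 8 arrays) was passed by 29 members and by 7500 genes in all.

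RNA was taken from naive CD4+ T cells, sorted as CD62L+CD44-CD25-DX5-CD4+ from spleen and from inguinal, axillary and brachial lymph nodes of C57BL6/NCrl mice. All cells were activated with anti-CD3e on the plate at 10 ug/ml and with anti-CD28 in solution at 1 ug/ml, together with 5 ug/ml of plate-bound Delta4-Ig, a recombinant form of the Notch ligand Delta-like 4, or of control Ig. There were 6 samples from 2 mice. At day 1 each stimulus had 1 sample, from mouse 1, and at day 3 each stimulus had a sample from mouse 1 and from mouse 2. The day 3 samples of mouse 1 were run on 2 arrays each, which were averaged as 1 sample before any test.

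Type I interferons bind a receptor made of Ifnar1 and Ifnar2 and act through the kinases Jak1 and Tyk2 on a transcription factor complex that holds Stat2 and Irf9 and binds the interferon-stimulated response element (ISRE) in promoters. Interferon-gamma, which activated T cells secrete, uses the receptor chains Ifngr1 and Ifngr2 and acts through the gamma-activated site (GAS) in promoters. In T cells this programme limits virus spread and also affects proliferation and survival after activation.

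Levels are log2 normalized intensities, so 1 unit is a factor of 2, and the level of a gene is not compared with that of another gene. Where 3 levels are given for a stimulus at day 3, the first pair are the technical arrays of mouse 1 and the last is mouse 2. Between 8940 and 10543 of 25697 probes were detected per array, and the few arrays limit the precision. Over the 29 members the SD between the technical arrays of a sample was 0.28 with either stimulus, while the SD between the mice was 0.75 under control Ig and 1.06 under Delta4-Ig. The T cell markers Cd3e, Cd3g, Cd3d, Cd4 and Cd247 were detected on all 8 arrays, whereas none of 4 macrophage or myeloid markers and none of 3 granulocyte markers with a probe was detected on any, and 1 of 4 B cell markers was detected on 1 array. Siglech, a marker of plasmacytoid dendritic cells, which are strong producers of type I interferon, was detected on 5 arrays and Tcf4 on 8, but Ly6d and Ccr9 on none. Of the natural killer cell markers, Nkg7 was detected on 8 arrays, Klrd1 on 4, and Ncr1 and Klrb1c on none. Cd8b1 was detected on all 8 arrays and Cd8a on none. In bulk samples, fewer cells of a type and less RNA per cell cannot be told apart.

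Promoters of some members are shown first, since the ISRE is the shared element of the programme. Of those shown, all but Oasl2 hold an ISRE, so they do not represent the members at large. Usp18 and Ifi27, which are called in tests below, had no window. Each window runs from 250 bases before to 50 bases after a transcription start, from RefSeq on GRCm38.p6, written 5′ to 3′ on the strand of the gene, with ISRE matches in capitals. The ISRE was searched as GAAANNGAAA and the GAS as TTCNNNGAA, each on both strands, so that an ISRE on the other strand reads as TTTC, any pair of bases and TTTC.
Isg15, chr4:156200769-156201068, minus strand: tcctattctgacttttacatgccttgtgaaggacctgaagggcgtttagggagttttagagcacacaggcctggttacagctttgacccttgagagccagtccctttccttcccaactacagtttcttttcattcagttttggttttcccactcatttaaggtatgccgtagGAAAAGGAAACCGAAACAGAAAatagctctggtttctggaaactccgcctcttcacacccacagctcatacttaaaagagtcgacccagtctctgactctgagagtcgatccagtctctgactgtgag
Bst2, chr8:71537423-71537722, minus strand: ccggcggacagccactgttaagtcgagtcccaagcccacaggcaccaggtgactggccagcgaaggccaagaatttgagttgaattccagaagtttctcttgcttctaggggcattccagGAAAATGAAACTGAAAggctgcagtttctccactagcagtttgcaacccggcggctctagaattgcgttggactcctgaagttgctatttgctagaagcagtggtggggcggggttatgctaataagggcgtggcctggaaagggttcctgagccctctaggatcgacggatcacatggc
Ifit3, chr19:34583279-34583578, plus strand: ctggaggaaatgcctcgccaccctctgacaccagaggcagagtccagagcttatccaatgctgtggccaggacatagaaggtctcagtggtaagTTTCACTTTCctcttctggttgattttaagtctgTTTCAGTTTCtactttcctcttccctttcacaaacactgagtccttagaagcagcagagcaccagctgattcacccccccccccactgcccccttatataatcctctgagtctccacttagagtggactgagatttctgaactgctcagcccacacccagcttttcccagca
Ifih1, chr2:62646206-62646505, minus strand: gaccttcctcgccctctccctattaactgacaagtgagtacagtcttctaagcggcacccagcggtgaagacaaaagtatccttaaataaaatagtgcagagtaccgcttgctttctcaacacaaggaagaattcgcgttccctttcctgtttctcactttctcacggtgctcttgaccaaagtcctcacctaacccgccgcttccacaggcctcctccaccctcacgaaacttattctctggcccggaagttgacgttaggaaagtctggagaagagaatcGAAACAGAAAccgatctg
Eif2ak2, chr17:78882523-78882822, minus strand: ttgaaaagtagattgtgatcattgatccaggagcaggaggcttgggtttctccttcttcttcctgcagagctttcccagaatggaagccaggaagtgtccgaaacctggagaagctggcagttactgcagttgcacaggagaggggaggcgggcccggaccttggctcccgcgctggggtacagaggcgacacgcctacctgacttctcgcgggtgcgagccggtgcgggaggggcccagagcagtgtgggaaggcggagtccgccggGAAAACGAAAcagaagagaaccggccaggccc
Ifi214, chr1:173535908-173536207, minus strand: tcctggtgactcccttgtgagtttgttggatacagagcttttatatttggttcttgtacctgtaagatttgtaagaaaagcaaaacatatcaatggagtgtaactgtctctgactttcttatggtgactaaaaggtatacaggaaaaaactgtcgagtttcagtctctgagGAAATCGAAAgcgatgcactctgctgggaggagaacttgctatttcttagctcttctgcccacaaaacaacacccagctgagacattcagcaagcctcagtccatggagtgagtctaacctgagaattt
Oasl2, chr5:114896684-114896983, plus strand: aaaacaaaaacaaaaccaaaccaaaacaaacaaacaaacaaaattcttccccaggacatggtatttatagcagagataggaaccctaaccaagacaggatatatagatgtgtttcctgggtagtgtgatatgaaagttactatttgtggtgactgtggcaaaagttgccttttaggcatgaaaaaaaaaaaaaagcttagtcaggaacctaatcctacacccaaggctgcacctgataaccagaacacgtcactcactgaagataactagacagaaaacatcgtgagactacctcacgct

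Isg15 held 3 overlapping ISRE matches, the first starting at position -78 from the transcription start. Bst2 and Ifit3 held 2 each, and Ifi214 held 1 starting at position -79. In Ifih1 and Eif2ak2 the match lay just downstream, from base 33 and base 19 of the transcript. The Oasl2 window held neither motif. Of the 41 members, 31 had a window, and 17 of these (54.8%) held an ISRE in at least 1 window, against 3.99% of all 27025 genes with one. By window, 18 of 39 (46.2%) held it, against 3.44% of all 32851 windows. GAS matches were present in 7 of the 31 members (22.6%) and in 9.55% of all genes, or in 7 of 39 windows (17.9%) against 8.30%. In the Bst2 window an ISRE and a GAS match overlapped. A match is a description of the letters and not a binding site.

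At day 3, most measured members were lower with Delta4-Ig than with control Ig in both mice. This held for 20 of the 29 members, while 32.4% of all 7500 genes were lower in both mice. Of the 20, Irf7 and Rsad2 were below detection in mouse 1 with either stimulus. Ifi27 was higher in both mice, as were 26.4% of all genes, and 8 members went opposite ways in the mice by the measured values. Of the 8, Ifi214 was below detection in mouse 1 with either stimulus. In mouse 1 Trim25 was below detection with control Ig and Sp100 with Delta4-Ig, and their direction there was not measured. The median difference of the 29 was -0.45 on the log2 scale, against -0.05 over all genes, and it was -0.56 in mouse 1 and -0.40 in mouse 2. In 9 members (Adar, Bst2, Eif2ak2, Ifih1, Ifit2, Igtp, Irgm1, Oasl2 and Parp14) every Delta4-Ig array lay below every control Ig array, which was so for 7.61% of all genes. Among the 18 members detected on all 8 arrays, 14 were lower in both mice (33.6% of the 5765 genes so detected were) and the median was -0.47. With 1 day 3 sample left out and no block, the stimuli are compared partly across mice, and the median moved. It was -0.82 without control Ig of mouse 1 and -0.23 without control Ig of mouse 2. It was -0.10 without Delta4-Ig of mouse 1 and -0.88 without Delta4-Ig of mouse 2.

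**Figure D1:**
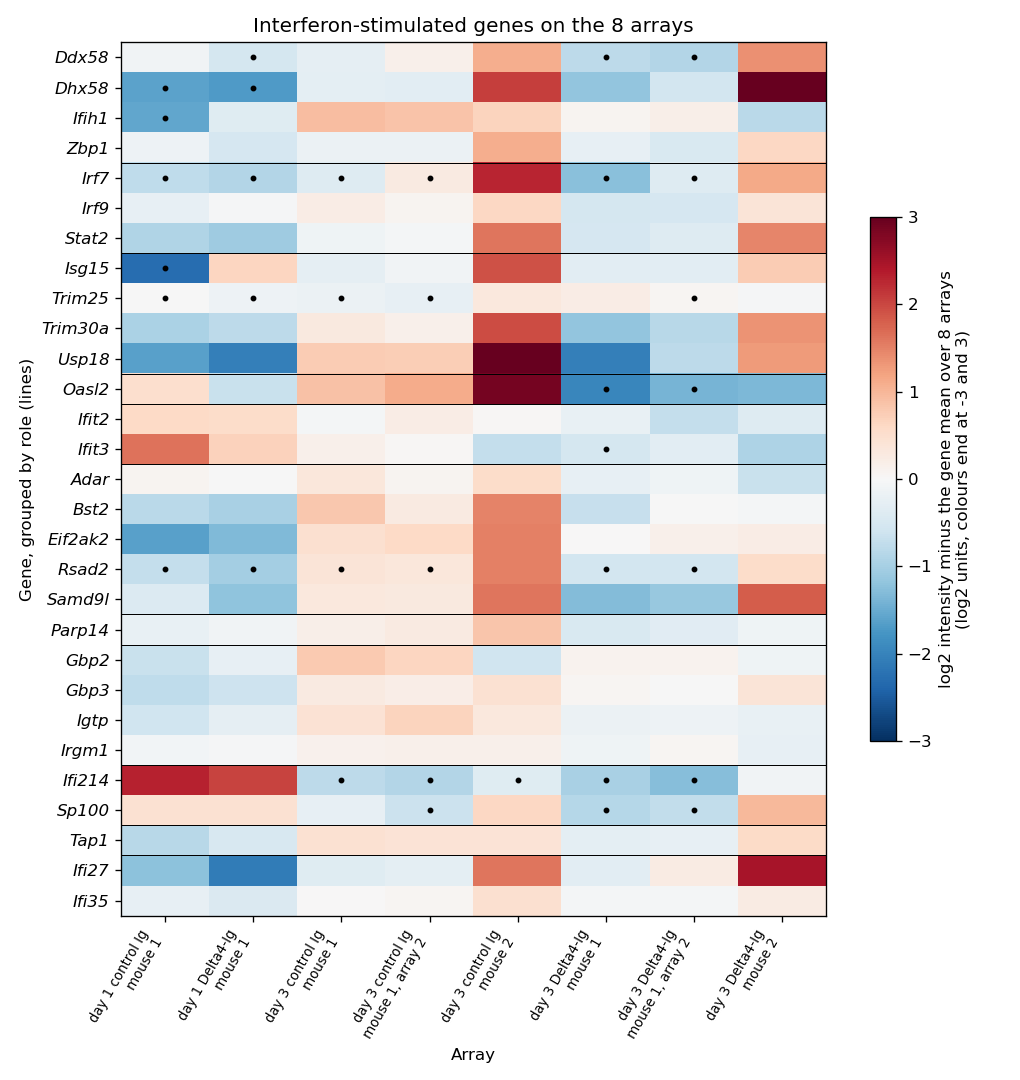
Heat map of the 29 measured interferon-stimulated genes (rows, grouped by role) on the 8 arrays (columns), coloured by log2 intensity minus the mean of that gene over the 8 arrays. Dots mark arrays on which the gene was not detected at a detection p under 0.01. The darkest red cells lie in the columns of mouse 2, and Ifi214 is darkest at day 1.

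The tests were run across all 10744 probes that passed the filter, with limma and Benjamini-Hochberg adjustment, and a result was called at an adjusted p under 0.05. Without regard to which mouse a sample came from, 0% of probes were called at day 3 (302 had an unadjusted p under 0.05, 2 of them member probes, and the smallest adjusted p of a member was 0.818). With the mouse as a block, which compares the stimuli within each animal, 31 probes (0.289%) were lower and 45 (0.419%) higher. In that fit, 2 of the 29 members fell, Oasl2 and Usp18, none rose, and the rest did not pass. The unadjusted p was under 0.05 for 10 members in that fit and for 1032 of all probes. The block fit leaves 1 residual degree of freedom and borrows the rest from the spread over all probes.

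Of the oligoadenylate synthetase family, enzymes and relatives that bind double-stranded RNA, only Oasl2 was measured in enough arrays. With control Ig at day 3 Oasl2 stood at 8.39 and 8.63 on the arrays of mouse 1 and at 10.40 in mouse 2. With Delta4-Ig it stood at 5.55 and 6.12 in mouse 1, not detected on either array, and at 6.17 in mouse 2. All 3 Delta4-Ig arrays were thus below all 3 control arrays. Oasl2 fell with the block by 3.45 ± 0.42 (SE) on the log2 scale (adjusted p = 0.0195 by limma), while without background correction the difference was -2.08 and did not pass. The difference was -4.23 in mouse 2, and in mouse 1, where the Delta4-Ig arrays give only a bound, Oasl2 was at least 4.90-fold lower. The fit without the block gave the same difference with an SE of 0.69 and an adjusted p of 0.818. Oasl1, which holds back Irf7 translation in mice, was detected on 1 array, control Ig of mouse 2 at day 3, at 8.34. On the other arrays Oasl1 lay between 4.78 and 5.80. Oas2 was detected on 1 array and Oas1a on none.

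The ISG15 system attaches the ubiquitin-like protein Isg15 to other proteins, and Usp18 removes it and also holds back the type I receptor. Usp18 stood at 9.52 and 9.49 in mouse 1 and at 12.49 in mouse 2 with control Ig at day 3. With Delta4-Ig it stood at 6.71 and 7.99 in mouse 1 and at 10.05 in mouse 2. The groups overlapped across mice, but within each mouse every Delta4-Ig array was below the control Ig arrays. The difference was -2.16 in mouse 1 and -2.44 in mouse 2. Usp18 fell with the block by 2.30 ± 0.31 (SE), 4.91-fold (adjusted p = 0.0281 by limma), while without it the SE was 1.30 and the adjusted p 1.00. Without the block and with 1 sample left out, so that the stimuli are compared partly across mice, the Usp18 difference was -3.79 without control Ig of mouse 1, -0.80 without control Ig of mouse 2, -0.94 without Delta4-Ig of mouse 1 and -3.65 without Delta4-Ig of mouse 2. A further Usp18 probe gave -2.42 with an adjusted p of 0.0261 with the block, and the dimmest of the 3, detected on 2 arrays, gave -1.50 with 0.369. Isg15 itself stood at 8.20, 8.37 and 10.38 with control Ig and at 8.16, 8.17 and 9.23 with Delta4-Ig. Its difference was small in mouse 1 (-0.12) and larger in mouse 2 (-1.14), and did not pass (adjusted p = 0.640 with the block). Trim30a, a TRIM protein, differed by -1.23 and -0.61 in the mice, and Trim25, the ubiquitin ligase that acts on the sensor Ddx58, by 0.36 and -0.37, neither past the threshold. Trim25 was not detected with control Ig in mouse 1, so its direction there was not measured.

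Both Oasl2 and Usp18 lost their call with the block when background correction was left out (adjusted p = 0.252 and 0.183, with the Usp18 difference at -1.88) or when no detection filter was applied (0.428 and 0.299). Oasl2 is not in the fit restricted to probes detected on all 8 arrays.

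**Figure D2:**
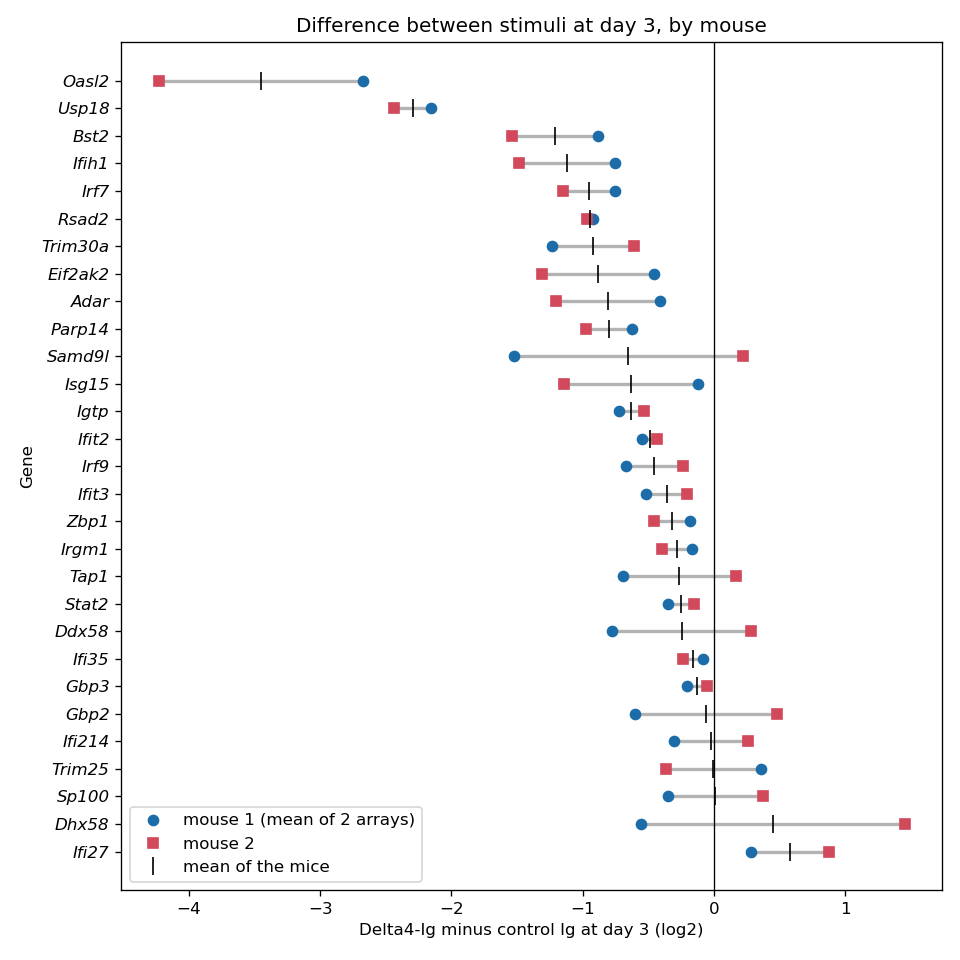
Difference between Delta4-Ig and control Ig at day 3 (log2, horizontal axis) for the 29 measured members, as circles for mouse 1 (mean of 2 arrays), squares for mouse 2 and bars for their mean. Oasl2 and Usp18 lie at the low end in both mice, and Dhx58 and Samd9l have opposite signs in the mice.

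The cytosolic RNA sensors moved unevenly. Ifih1 (MDA5), a sensor of long double-stranded RNA, stood at 7.74 and 7.69 in mouse 1 and at 7.50 in mouse 2 with control Ig at day 3, and at 6.91, 7.01 and 6.02 with Delta4-Ig, with no overlap. Its difference of -1.12 ± 0.34 (SE) did not pass (adjusted p = 0.293 with the block). Dhx58 (LGP2), a regulator of the other sensors, stood at 7.31, 7.28 and 9.68 with control Ig and at 6.42, 7.05 and 11.13 with Delta4-Ig. It was thus lower with Delta4-Ig in mouse 1 (-0.56) and higher in mouse 2 (1.45). Ddx58 (RIG-I) stood at 6.35, 6.77 and 7.70 with control Ig and at 5.83, 5.74 and 7.98 with Delta4-Ig. The Delta4-Ig arrays of mouse 1 were not detected, so Ddx58 was at least 1.27-fold lower there. In mouse 2 it was higher by only 0.28, less than the gap between its control Ig arrays of mouse 1. Zbp1, a sensor of Z-form nucleic acids, differed by -0.19 and -0.46.

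Of the 3 transcription factors of the pathway none passed, and Stat2 and Irf9 were lower with Delta4-Ig in both mice. Irf7, which drives type I interferon genes, was detected at day 3 only in mouse 2, at 8.39 with control Ig and 7.24 with Delta4-Ig, and its direction in mouse 1 was not measured. Stat2 stood at 7.68, 7.76 and 9.43 with control Ig and at 7.30, 7.44 and 9.28 with Delta4-Ig, so the difference between the mice was far larger than that between the stimuli. Irf9 differed by -0.67 in mouse 1 and -0.23 in mouse 2.

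Among the antiviral effectors, 5 of 7 members passed the filter, and Bst2, Eif2ak2 and Adar were lower with Delta4-Ig in both mice. Bst2 (tetherin), which holds virus particles at the cell surface, stood at 9.26, 8.71 and 9.93 with control Ig and at 7.75, 8.45 and 8.39 with Delta4-Ig. The arrays did not overlap, and the difference of -1.21 ± 0.33 (SE) had an adjusted p of 0.231 with the block. Bst2 is also a marker of plasmacytoid dendritic cells. The normalized intensity of that marker list, summed per array, ran from 926 to 1674 with control Ig at day 3. With Delta4-Ig it ran from 842 to 1243, and Bst2 is itself part of the sum. Of the other markers detected, Tcf4 differed by 0.30 in mouse 1 and 0.39 in mouse 2. Siglech differed by -0.92 in mouse 1, where it was not detected with Delta4-Ig, and by 0.27 in mouse 2. The part of these markers in the result was not tested.

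Eif2ak2 (PKR), the kinase that stops translation on double-stranded RNA, stood at 10.00, 10.12 and 11.05 with control Ig and at 9.54, 9.67 and 9.74 with Delta4-Ig. Again no arrays overlapped, and the difference was -0.88 ± 0.35 (SE; adjusted p = 0.475 with the block). Adar, the double-stranded RNA editing enzyme, stood at 9.53, 9.28 and 9.73 against 8.93, 9.05 and 8.52. Its difference of -0.81 had an adjusted p of 0.516, and 2 further probes gave -0.21 and -0.32. Rsad2 (viperin) was detected at day 3 only in mouse 2, at 7.35 with control Ig and 6.38 with Delta4-Ig, and its direction in mouse 1 was not measured. Samd9l, an antiviral and growth-restraining protein, was 1.52 lower with Delta4-Ig in mouse 1 and 0.22 higher in mouse 2.

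Parp14, an ADP-ribosyltransferase, stood at 10.98, 11.07 and 11.65 with control Ig and at 10.34, 10.46 and 10.67 with Delta4-Ig, without overlap (-0.80 ± 0.32 (SE), adjusted p = 0.476 with the block). The IFIT proteins bind viral RNA. Ifit2 stood at 8.43, 8.73 and 8.53 against 8.28, 7.78 and 8.10, again without overlap but with a difference of only -0.49 (adjusted p = 0.679), and its further probe gave -0.85. Ifit3 differed by -0.52 in mouse 1 and -0.20 in mouse 2.

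The interferon-inducible GTPases take part in defence against intracellular pathogens. Igtp (Irgm3) stood at 13.65, 13.89 and 13.53 with control Ig and at 13.02, 13.06 and 12.99 with Delta4-Ig, a difference of -0.63 ± 0.31 (SE) without overlap (adjusted p = 0.585 with the block). For Irgm1 the brightest probe gave -0.29, and a dimmer probe detected on all 8 arrays gave -1.82 (adjusted p = 0.0674 with the block), so the probes of Irgm1 disagreed in size. Gbp2 differed by -0.61 in mouse 1 and 0.48 in mouse 2, and Gbp3 by -0.21 and -0.05.

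Of the remaining members, Tap1, the peptide transporter of class I presentation, stood at 10.64, 10.60 and 10.59 with control Ig and at 9.90, 9.94 and 10.75 with Delta4-Ig, lower in mouse 1 only. Ifi27 stood at 10.67, 10.74 and 12.63 against 10.71, 11.27 and 13.51. It was the only member higher with Delta4-Ig in both mice, by 0.28 and 0.87, and did not pass (adjusted p = 0.633 with the block). Sp100, a nuclear body protein, differed by -0.35 in mouse 1 and 0.37 in mouse 2. It was not detected with Delta4-Ig in mouse 1, so its direction there was not measured. Ifi35 differed by -0.09 and -0.24.

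The plot of 6 members by array sets out these levels beside those of day 1. The other 10 members with a probe, Oasl1, Oas1a, Oas2, Mx1, Ifit1, Rtp4, Xaf1, Parp9, Parp12 and Iigp1, were detected on at most 1 array each and entered no test. Of these, 6 were detected on none.

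**Figure D3:**
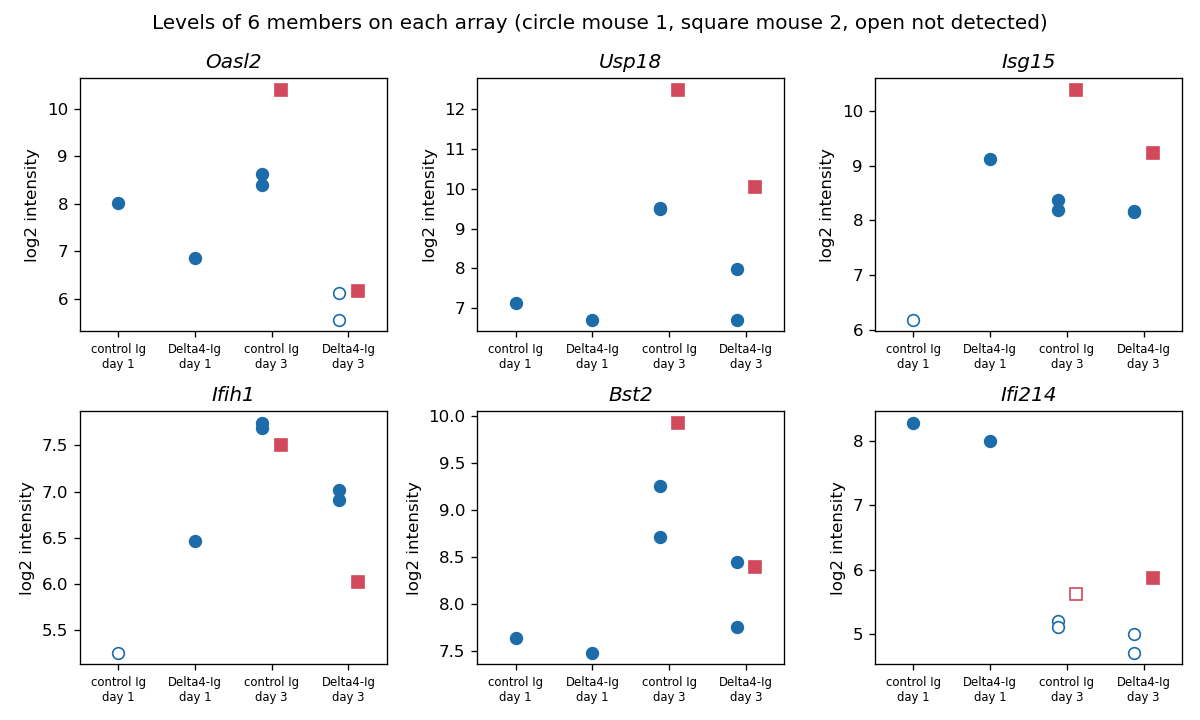
Log2 intensity of Oasl2, Usp18, Isg15, Ifih1, Bst2 and Ifi214 on each array, by stimulus and day (each panel has its own vertical scale). Circles are arrays of mouse 1, squares mouse 2, and open symbols arrays on which the gene was not detected. At day 3 Oasl2, Ifih1 and Bst2 show no overlap between stimuli, and Ifi214 is high only at day 1.

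For many members the mice lay further apart than the stimuli. At day 3, mouse 2 was at least 2-fold above mouse 1 with both stimuli in 11 of the 29 members (Ddx58, Dhx58, Ifi27, Irf7, Isg15, Rsad2, Samd9l, Sp100, Stat2, Trim30a and Usp18), against 5.11% of all genes. Irf7 and Rsad2 were not detected on any array of mouse 1, and they passed the filter only through mouse 2. Among the 18 members detected on all 8 arrays, the count was 5 (Ifi27, Samd9l, Stat2, Trim30a and Usp18), against 3.42% of the genes so detected. No member was at least 2-fold lower in mouse 2 with both. The median difference, mouse 2 minus mouse 1, was 0.95 with control Ig and 0.83 with Delta4-Ig, against -0.03 and -0.05 over all genes. Usp18 differed by 2.98 with control Ig and 2.70 with Delta4-Ig, and Dhx58 by 2.39 and 4.40. By contrast Oasl2 was 1.89 higher in mouse 2 with control Ig but 0.33 higher with Delta4-Ig, and Eif2ak2 0.99 and 0.14. Among members lower in mouse 2, the difference was -1.31 and -0.22 for Gbp2, -0.24 and -0.05 for Igtp and -0.21 and -0.95 for Ifih1. There is 1 animal on each side, so this has no test. The T cell markers, summed per array, came to 47986 with Delta4-Ig in mouse 2 at day 3. On the other arrays the sum lay between 20791 and 27961. Some markers of other cell types were also higher in mouse 2. Klrd1, at day 3 detected only in that mouse, differed by 2.06 with control Ig and 3.82 with Delta4-Ig, and Cd8b1 by 0.85 and 1.08. Siglech differed by 0.58 and 1.76, and in mouse 1 it was not detected with Delta4-Ig. Tcf4 differed by 0.21 and 0.30, but with control Ig mouse 2 (9.23) lay between the arrays of mouse 1 (9.25 and 8.80). Nkg7 differed by -0.46 and 0.87. The part of these markers in the differences was not tested.

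**Figure D4:**
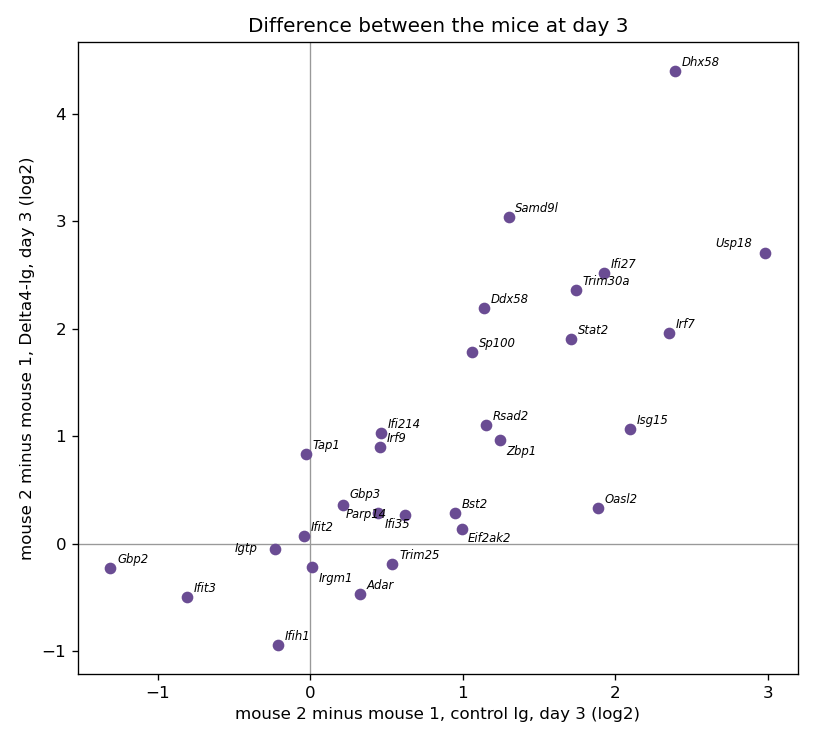
Mouse 2 minus mouse 1 at day 3 (log2) with control Ig (horizontal axis) and with Delta4-Ig (vertical axis), 1 point for each of the 29 measured members. Dhx58, Usp18, Samd9l and Ifi27 lie far to the upper right, and Ifih1, Ifit3 and Gbp2 lie below 0 on both axes.

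At day 1, where each stimulus had 1 sample and the difference is described without a test, 26 members were detected in at least 1 sample. Isg15 stood at 9.12 with Delta4-Ig and was not detected with control Ig (6.19), so it was at least 7.41-fold higher. Ifih1 was likewise detected only with Delta4-Ig, at 6.47 against 5.26, at least 1.18-fold higher. Oasl2 was 2.24-fold lower with Delta4-Ig, at 6.86 against 8.02. Oas2 was detected only with control Ig, at 6.40 against 5.24, at least 1.23-fold lower, and Ddx58 only with control Ig at 6.51 against 6.10. By the measured values, 2 members were at least 2-fold higher (1.05% of the 6955 genes detected at day 1) and 2 at least 2-fold lower (0.82% of those genes). Usp18 stood at 7.14 with control Ig and at 6.71 with Delta4-Ig.

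Mouse 1 was measured at day 1 and at day 3, and in it more members were at least 2-fold higher at day 3 than at day 1 with control Ig than with Delta4-Ig. With control Ig, 12 members were at least 2-fold higher at day 3 (9.92% of all genes were) and 2 at least 2-fold lower (7.93%). With Delta4-Ig, 2 were at least 2-fold higher (10.8% of all genes) and 5 at least 2-fold lower (7.91%). The median change in mouse 1 was 0.71 with control Ig and 0.11 with Delta4-Ig, and it was -0.03 over all genes with either stimulus. The 12 were Bst2, Dhx58, Eif2ak2, Gbp2, Gbp3, Ifih1, Igtp, Isg15, Rsad2, Tap1, Trim30a and Usp18, and of these Eif2ak2 was also at least 2-fold higher with Delta4-Ig, together with Ifi27. Rsad2 is counted from values all below detection. The 5 lower with Delta4-Ig were Ifi214, Ifit2, Ifit3, Oasl2 and Sp100, counted by the measured values. Oasl2 and Sp100 were not detected at day 3 with Delta4-Ig in mouse 1. Their bounds, at least 1.56-fold and at least 1.77-fold lower, do not reach 2-fold. Among the 18 members detected on all 8 arrays, 8 were at least 2-fold higher with control Ig (7.18% of the genes so detected) and 2 with Delta4-Ig (7.7%).

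**Figure D5:**
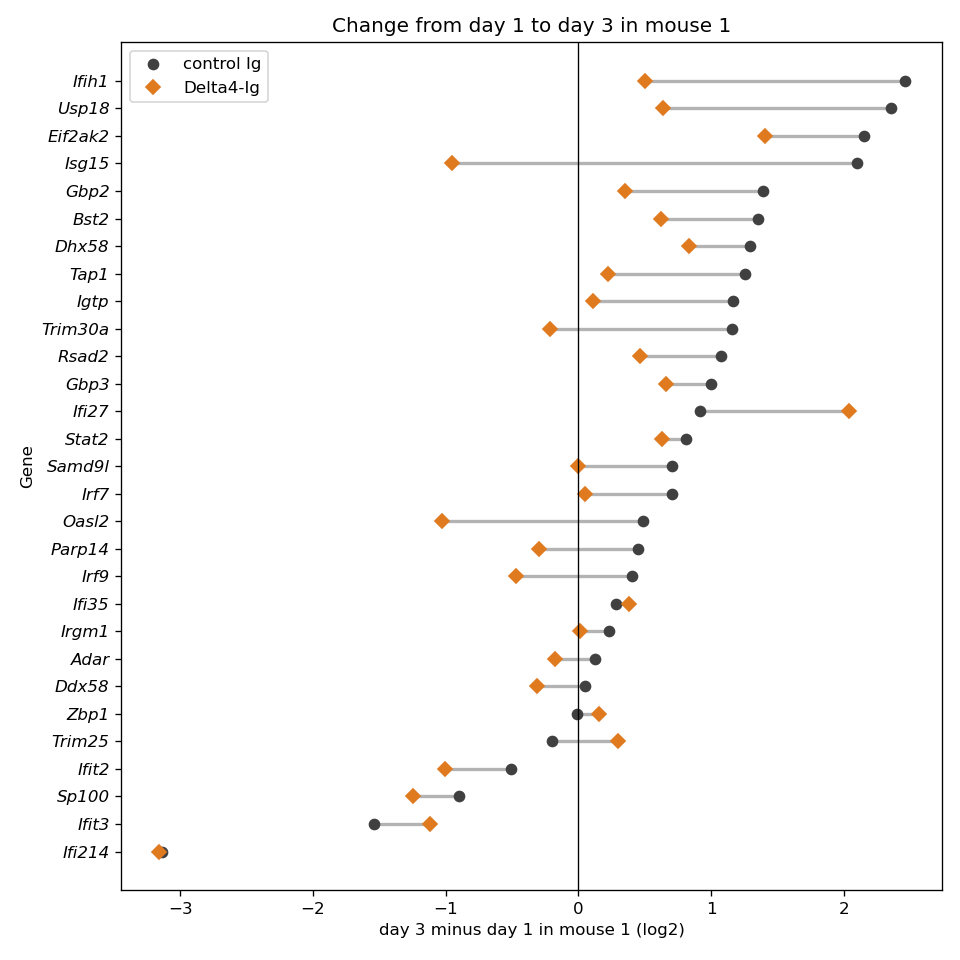
Change from day 1 to day 3 in mouse 1 (log2, horizontal axis) for the 29 measured members, as circles for control Ig and diamonds for Delta4-Ig, ordered by the change with control Ig. For most members the diamond lies left of the circle, and Ifi214 is lowest with both stimuli.

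In the test over time with control Ig, none of the members passed without the block (646 of all probes and 6 of the members had an unadjusted p under 0.05). With the block, 227 probes (2.11%) were higher and 83 (0.773%) lower at day 3, and 3 members rose. Usp18 rose by 2.43 ± 0.41 (SE) from 7.14 at day 1 (adjusted p = 0.0316 by limma); without the block its change was 5.34 without control Ig of mouse 1 and 2.36 without control Ig of mouse 2. Ifih1, not detected at day 1, rose by 2.64 ± 0.45 (adjusted p = 0.0314), and in mouse 1 it was at least 2.80-fold higher. Eif2ak2 rose by 2.36 ± 0.46 from 7.91 (adjusted p = 0.0467). Isg15 just missed the threshold (adjusted p = 0.0553). The PYHIN gene Ifi214 fell by 3.28 ± 0.43 (adjusted p = 0.0160): it stood at 8.29 at day 1 and was not detected on the control Ig arrays of day 3, in mouse 1 at least 3.86-fold lower. All 4 calls were lost without background correction and without the detection filter, and those of Ifih1 and Eif2ak2 also with an offset of 50. Day 1 was measured in mouse 1 only. In the tests over time with either stimulus, and of the interaction, the SE thus holds no spread between animals of the change over time. That SE rests on the day 3 samples and on the spread over all probes.

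With Delta4-Ig, 0 members passed over time without the block (901 of all probes and 3 of the members had an unadjusted p under 0.05). With the block, 245 probes (2.28%) were higher and 71 (0.661%) lower. Ifi27 rose by 2.19 ± 0.43 (SE; adjusted p = 0.0484 by limma) from 8.95 at day 1, and without the block its change was 4.56 without Delta4-Ig of mouse 1 and 2.04 without Delta4-Ig of mouse 2. Ifi214 fell by 3.02 ± 0.43 (adjusted p = 0.0190) from 8.01 at day 1, and at day 3 it was detected only in mouse 2, at 5.88, so that in mouse 1 it was at least 3.47-fold lower. Both calls were lost without background correction and without the detection filter, and that of Ifi27 also when only the first array of mouse 1 was used. In mouse 1 Oasl2 was at least 1.56-fold lower at day 3 with Delta4-Ig and differed by 0.49 with control Ig. For Isg15 in mouse 1, the difference with Delta4-Ig was -0.96, while with control Ig the day 3 level was higher by at least 4.15-fold.

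Whether the difference between stimuli changed from day 1 to day 3 was tested by the interaction term, for which 0 members and 0% of all probes were called with the block or without it (370 and 64 probes had an unadjusted p under 0.05). With the block Isg15 had the smallest p of the members, and without it Ifih1 had, the only member with an unadjusted p under 0.05 (0.0309). The Isg15 difference, Delta4-Ig minus control Ig, was 2.93 at day 1 and -0.63 at day 3. The interaction was -3.56 ± 0.63 (SE; adjusted p = 0.370 with the block), and the adjusted p was 0.0452 with scaling to the 75th percentile and 0.0426 with only the second array of mouse 1. For Ifih1 it was -2.33 ± 0.58 (adjusted p = 0.763 with the block).

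Genes around the members were read from lists of the pathway. Of 20 interferon genes, 18 had a probe and 3 passed the filter. Ifnb1 and 13 further type I genes were detected on no array, Ifne on 1, Ifnz on 2, and Ifna6 stayed between 6.95 and 7.31 on all 8. Ifng, the T cell interferon, stood at 6.13 (not detected) in the control Ig sample of day 1 and at 7.49 in the Delta4-Ig one. At day 3 it stood at 10.04, 10.35 and 12.72 with control Ig and at 12.78, 12.82 and 12.11 with Delta4-Ig, so it was higher with Delta4-Ig in mouse 1 and lower in mouse 2 (adjusted p = 0.707 with the block). With control Ig it rose over time with the block by 4.87 ± 0.90 (SE; adjusted p = 0.0413 by limma), and in mouse 1 it was at least 15.6-fold higher.

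Among the 6 receptor genes, Ifnar1 and Ifnlr1 were not detected, and of the 4 measured none passed at day 3. Ifngr1 stood at 7.63, 7.60 and 7.50 with control Ig and at 8.59, 8.60 and 10.43 with Delta4-Ig, without overlap, with a difference of 1.95 ± 0.48 (SE; adjusted p = 0.174 with the block). None of the 9 measured genes of JAK-STAT signalling passed. Irf8 differed by -1.28 and Irf1, a factor induced by interferon-gamma, by -0.96, while Jak1 (0.13), Tyk2 (-0.09), Jak2 (-0.37), Stat3 (0.29), Stat4 (-0.20), Irf2 (0.13) and Irf4 (0.15) differed less. Of 14 measured negative regulators 1 passed: Socs3, an inhibitor of JAK kinases, rose with the block by 2.83 ± 0.39 (SE; adjusted p = 0.0293 by limma). Socs3 stood at 7.55, 7.55 and 10.36 with control Ig and at 10.99, 11.06 and 12.55 with Delta4-Ig. Irf2bp1 (-0.50) and Ptpn11 (-0.49) followed and did not pass.

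None of the 10 measured genes of interferon induction passed at day 3, where Irf5 (-1.61, adjusted p = 0.0910 with the block), Tlr7 (-1.10) and Unc93b1 (-1.01) differed most. Irf5 rose over time with control Ig with the block (adjusted p = 0.0107), and in mouse 1 it was at least 8.26-fold higher. The genes lower with Delta4-Ig in both mice were 0 of 3 interferons, 1 of 4 receptors and 5 of 9 JAK-STAT genes. They were 4 of 14 negative regulators and 4 of 10 induction genes, against 32.4% of all 7500 genes. Class I presentation had 14 measured genes, of which 9 were lower with Delta4-Ig in both mice and none passed (median -0.30). Nlrc5, the activator of class I genes, differed by -1.08, Psmb10 by -0.94 and Erap1 by -0.92. Of 66 other interferon-stimulated genes, 52 had a probe of their own and 35 passed the filter. In these the median at day 3 was -0.53, 18 were lower in both mice (32.4% of all genes were), and none passed. Tor3a (-1.71), Cmpk2 (-1.59) and Tgtp1 (-1.57) differed most, with adjusted p of 0.104, 0.0947 and 0.0988 with the block. Over time with control Ig, Tor3a, Cmpk2 and Ifitm2 rose with the block (adjusted p = 0.0269, 0.0232 and 0.0339 by limma), and with Delta4-Ig only Ifitm2 of this list passed (0.0338).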

How the data were processed

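Gene expression was measured on an Illumina mouse bead array in 8 arrays of 6 samples. The authors deposited a table of non-normalized probe intensities with a detection p-value for each probe and array, and a table of normalized log2 values. Per the submitters' processing notes GenomeStudio and limma were used, with no version or step given in the sources used here. The deposited log2 values differed from the values used here by at most 0.042.

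Intensities were background-corrected with normexp (offset 16, negative controls inferred from the detection p-values), quantile-normalized and log2-transformed with neqc in limma 3.58.1 (R 4.3.3). Probes needed a detection p under 0.01 on 2 of 8 arrays (10744 of 25697). Of all probes 23978 carried 1 gene symbol and 1719 none. The technical arrays of a sample were averaged. limma's lmFit and eBayes were fitted over all 6 samples and 4 groups, so the lone day 1 samples are assumed to vary like those of day 3. Adjusted p-values are Benjamini-Hochberg over all tested probes. The mouse block was the alternative, and since samples of a number come from the same animal per the labels, its values stand beside the results. The difference between the mice correlated across probes between the stimuli (r = 0.607), with 2 pairs of samples. All 8 arrays were on 1 chip per the labels.

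Where a gene was not detected on any array of a group, a fold is given as "at least". It sets the mean of the bright group against the dim arrays, each taken at its own signal or at its dimmest detected probe, whichever was brighter. The fits were run on simulated data in which the shift between mice was the same with both stimuli. The members here did not all follow that setting, so the run does not bear on their calls. Every member is accounted for; array values are given for the 10 members of smallest p at day 3, any past a threshold, those detected in 1 day 1 sample, those with the largest changes over time and the sole member of a role. The members, gene lists and tests were chosen with earlier results of these data known. Motif windows came from RefSeq on GRCm38.p6. The alternatives were no background correction, an offset of 50, 75th percentile scaling, the deposited log2 values, other detection filters, single technical arrays and leaving out day 3 samples.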

Additional observations from a re-analysis of the deposited data

How the results depend on the processing

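No member was called at day 3, over time or for the interaction in any fit without the mouse as a replicate block, whatever the alternative or the sample left out. With the replicate block, 2, 4 and 2 members were called at day 3, over time with control Ig and over time with Delta4-Ig, and as many with the deposited log2 values. The counts, chosen after seeing the data, were 2, 2 and 2 with an offset of 50, 2, 6 and 2 with 75th percentile scaling (and 1 for the interaction), 2, 4 and 1 with only the first array of mouse 1, 2, 5 and 2 with only the second (and 1 for the interaction), and 1, 2 and 1 with detection on all 8 arrays. No member was called with the block without background correction or without a detection filter. Over the block fits the adjusted p ran from 0.000342 to 0.428 for Oasl2 and from 0.00185 to 0.299 for Usp18. All probes called at day 3 with the block numbered 76, against 53 with the offset of 50 and 264 with 75th percentile scaling.

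The median day 3 difference was -0.34 without background correction, -0.32 without a detection filter (39 members), and -0.88 to -0.10 when 1 day 3 sample was left out. The day 1 count past 2-fold was 4, but it came to 1 when the background was left in, to 1 when the offset was 50, and to 0 when only members detected on every array were kept. The Ifi214 day 3 difference (-0.020) was 0.0076 with an offset of 50 and 0.030 with the first array only, with or without the block. When 1 day 3 sample was left out, the day 3 difference ran from -0.68 to 1.84 for Ifi27, -1.75 to 2.65 for Dhx58, -1.68 to 0.41 for Isg15, -1.35 to 0.85 for Ddx58, -1.21 to 0.70 for Stat2, -0.68 to 0.15 for Tap1, -0.53 to 0.49 for Ifi214, -3.79 to -0.80 for Usp18 and -4.40 to -2.51 for Oasl2, and the Delta4-Ig change over time from -0.45 to 0.50 for Ifih1 and -0.96 to 0.11 for Isg15. The fits with a sample left out have no block and compare stimuli or days partly or wholly across mice. The cause was not tested. The block fits were not run with a sample left out, since no residual degree of freedom would remain. Members not above background on most arrays limit what these arrays can show.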
